A study of Mus musculus with 6 samples.

Results

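The unfolded protein response and the integrated stress response were followed through 41 genes, chosen by symbol among the 49492 genes of the deposited count table. They were split by role into 16 genes of the PERK-ATF4 branch, 5 genes of serine and one-carbon synthesis and 20 genes of the ATF6-XBP1 branch. RNA came from HL-1 cells, a mouse line of atrial heart muscle origin, all kept in palmitic acid, a saturated fatty acid. 3 libraries were from cells transfected with vector and 3 from cells that overexpressed the long noncoding RNA ZNF593-AS. No library without palmitic acid was among them, so the fatty acid's own effect could not be measured. The titles name ZNF593-AS for all 3 treated libraries, while the treatment field gives ZNF594-AS for replicate 2 and ZNF595-AS for replicate 3, and the libraries were grouped by title. No label states that the replicates came from separate cultures, and the p-values then measure only the spread between these libraries, which may be technical. Library totals ran from 51470457 to 84547615 counts. Of 13 atrial and heart muscle markers, 10 were under 1 CPM (counts per 1000000 of scaled library size), with Nppa and Sln at no count and Tnnt2 at 89.2 and 97.4 CPM in vector and ZNF593-AS libraries, so most markers of an atrial cell were near 0 in this RNA.

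Cells respond to misfolded protein in the endoplasmic reticulum (ER) through the membrane sensors PERK, IRE1 and ATF6. PERK and its sister kinases phosphorylate the initiation factor eIF2, which lowers general translation while raising translation of the transcription factor ATF4, and ATF4 switches on genes for amino acid synthesis, redox balance and cell death. IRE1 splices Xbp1 RNA and ATF6 is cleaved in the Golgi, and both products raise ER chaperones and the machinery of ER-associated degradation. Saturated fatty acids such as palmitic acid are known inducers of these pathways in cultured cells. Gene counts show RNA abundance alone, and not phosphorylation, cleavage or splicing.

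None of the 40 members that could be tested passed the threshold between ZNF593-AS and vector libraries (edgeR quasi-likelihood test, Benjamini-Hochberg adjusted p under 0.05 over 16473 genes), while 8.40% of all tested genes did, 6.16% lower and 2.23% higher. That split depended on the scaling. With TMM 1015 genes were lower and 368 higher, against 811 and 1284 with library totals and 855 and 885 with upper-quartile factors. More genes were also lower than higher with RLE factors (1027 and 359), DESeq2 (1092 and 385) and limma-voom (1004 and 312). By other tools, DESeq2 called 3 members lower (Phgdh, Psat1 and Derl1), beside 1092 of all 16473 genes, and limma-voom called 0, beside 1004. With no filter on low counts edgeR called 6 members lower, namely Psat1, Derl1, Canx, Pdia6, Creld2 and Hyou1, beside 1111 of 27135 genes. With library totals it called Ddit4 higher, beside 1284 of 16473 genes. Taken without adjustment, 11 members (27.5%) were lower and 0 higher at p under 0.05, against 11.2% and 9.18% of all tested genes. The 11 became 0 with library totals and 2 with upper-quartile factors, where the share of all tested genes that were lower was 6.59% and 7.59%. The fold changes were small. The median log2 fold change was -0.11 over the tested members and 0.01 over all tested genes, and the members ranged from -0.29 for Creld2 to 0.13 for Ddit4. For 39 of the 40, the 95% interval of the fold change lay within 1.5-fold in either direction, and the exception was Creld2, whose lower bound was -0.62. In 6 members the 3 ZNF593-AS libraries all lay below the 3 vector libraries, which is 15% of those tested, and in 1 they all lay above, against 13.4% and 12.4% of all tested genes. In bulk RNA of this kind, fewer cells of a type and less RNA per cell cannot be told apart.

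**Figure D1:**
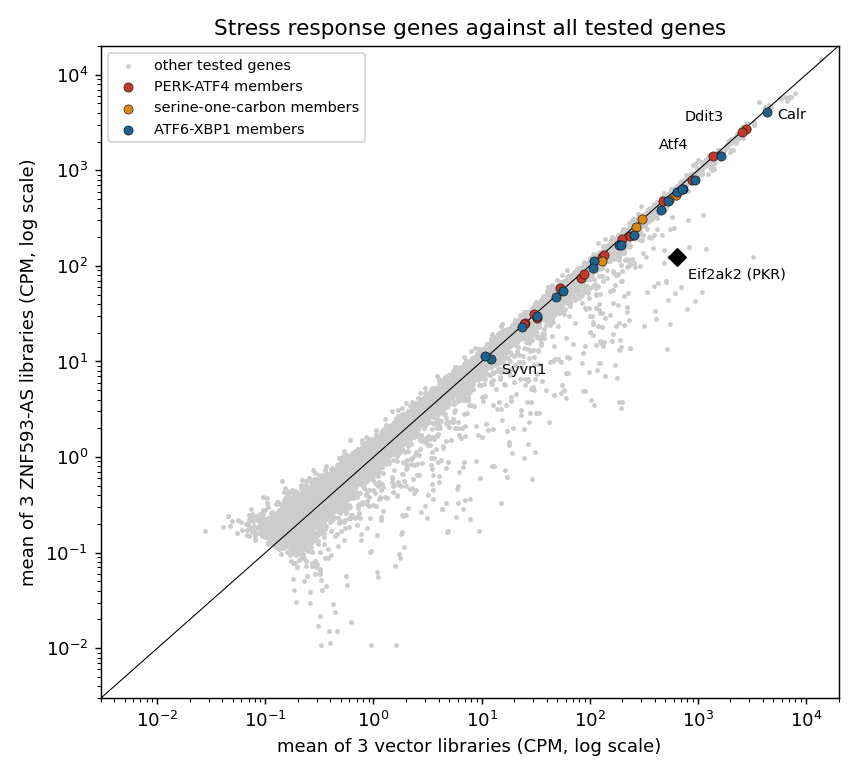
Mean CPM of the 3 ZNF593-AS libraries (y, log scale) against the mean of the 3 vector libraries (x, log scale) for all tested genes (grey), with the tested members coloured by branch and the line of equal levels. The members lie close to the line, while Eif2ak2, an eIF2 kinase gene that is not a member, lies far below it at 643 against 125 CPM.

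Many of the members were among the most abundant transcripts of these cells in both groups. Ranked by CPM per kilobase of exon over both groups, 4 members were among the 100 highest of the tested genes and 15 among the 500 highest. Ddit3, which encodes the pro-apoptotic factor CHOP, led with 1612 CPM per kilobase (rank 30), followed by Calr, the calcium-binding chaperone calreticulin, with 1456 (rank 40). Ppp1r15a, also called GADD34, which recruits a phosphatase to eIF2, stood at 868 (rank 63) and Atf4 at 813 (rank 72). At the low end were the ubiquitin ligase gene Syvn1 at 2.38 CPM per kilobase and the lipoprotein receptor gene Vldlr at 2.44. Derl3, a derlin of professional secretory cells, had 34 counts over all 6 libraries, 0, 8 and 7 in vector replicates 1, 2 and 3 and 10, 5 and 4 in ZNF593-AS replicates 1, 2 and 3, and did not pass the filter on low counts.

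The 16 genes of the PERK-ATF4 branch had log2 fold changes from -0.17 (Asns) to 0.13 (Ddit4), with a median of -0.04, and none passed. The kinase genes and Atf4 had fold changes near 0, while some targets lay further below it. Eif2ak3, which encodes PERK, was at 25.0, 25.1 and 26.1 CPM in vector replicates 1, 2 and 3 and at 27.4, 23.5 and 24.6 CPM in ZNF593-AS replicates 1, 2 and 3. Eif2ak4, which encodes the amino acid sensing kinase GCN2, was at 27.7, 30.5 and 33.9 CPM with vector and at 31.7, 31.4 and 32.0 CPM with ZNF593-AS. The groups overlapped in both kinase genes, and the log2 fold changes were -0.01 ± 0.07 (SE) and 0.04 ± 0.07.

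Atf4 was at 1437, 1371 and 1366 CPM in the vector libraries and at 1449, 1424 and 1366 CPM in the ZNF593-AS libraries. The groups overlapped almost wholly, with a log2 fold change of 0.02 ± 0.07 and a 95% interval from -0.13 to 0.17 (edgeR adjusted p = 0.902). Ddit3 was at 3043, 2463 and 2858 CPM with vector and at 2757, 2624 and 2825 CPM with ZNF593-AS. The treated libraries lay inside the range of the vector libraries, and the interval ran from -0.21 to 0.15 (log2 fold change -0.03 ± 0.09, edgeR adjusted p = 0.900). Atf3, a stress-induced repressor and activator of the same family, was at 472 ± 32.9 CPM (SD, n = 3) and 480 ± 30.9 CPM (SD, n = 3), and Ppp1r15a at 2560 ± 62.1 and 2536 ± 121 CPM.

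In 4 of the 16 genes (25%, against 13.4% of all tested genes) every treated library was below every vector library, without passing the test. Asns, asparagine synthetase, was at 233, 248 and 222 CPM in vector replicates 1, 2 and 3 and at 210, 214 and 199 CPM in ZNF593-AS replicates 1, 2 and 3, which is -0.17 ± 0.07 as a log2 fold change (edgeR adjusted p = 0.133). Sesn2, a leucine sensor that restrains mTORC1, was at 31.6, 33.7 and 31.5 CPM with vector and at 30.0, 28.5 and 27.7 CPM with ZNF593-AS (-0.17 ± 0.07, edgeR adjusted p = 0.151). Nupr1, a stress-induced chromatin-associated protein, was at 924, 848 and 852 CPM and at 784, 818 and 748 CPM in the respective groups (-0.16 ± 0.07, edgeR adjusted p = 0.214). In these 3 genes the highest treated library stood just under the lowest vector library.

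The last of the 4 was Cebpb, a transcription factor that pairs with ATF4, at 83.3, 88.4 and 77.3 CPM with vector and 72.0, 74.5 and 75.4 CPM with ZNF593-AS (log2 fold change -0.17 ± 0.06, edgeR adjusted p = 0.141). Its value is uncertain, since Tmem189 shares 20.7% of its exon bases on the opposite strand and had 0.972 to 1.03 times its CPM in each library, and without a known strand setting its counts may hold reads of Tmem189.

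Other targets went different ways or stayed level. Ddit4, an mTORC1 inhibitor also called REDD1, was at 53.2, 54.6 and 52.5 CPM with vector and at 60.6, 58.5 and 55.7 CPM with ZNF593-AS, the single member whose treated libraries all lay above (0.13 ± 0.06, edgeR adjusted p = 0.261). Chac1, which degrades glutathione, was at 188, 207 and 199 CPM with vector but spread from 230 in replicate 1 to 185 in replicate 2 and 158 in replicate 3 of ZNF593-AS (-0.05 ± 0.11). Trib3, a pseudokinase that restrains ATF4 and Akt, had a log2 fold change of -0.10 ± 0.06, Atf5, a relative of ATF4 in the mitochondrial stress response, -0.07 ± 0.06, Ppp1r15b, the constitutive partner of the eIF2 phosphatase, -0.07 ± 0.06, and Vldlr -0.0048 ± 0.089. The branch median of -0.04 was positive when library totals (0.052) or upper-quartile factors (0.023) replaced the TMM scaling, settings that also moved the median of all genes from 0.01 to 0.10 and 0.07. Taken from the median of all genes in the same setting, the branch stood at -0.05 in all 3.

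**Figure D2:**
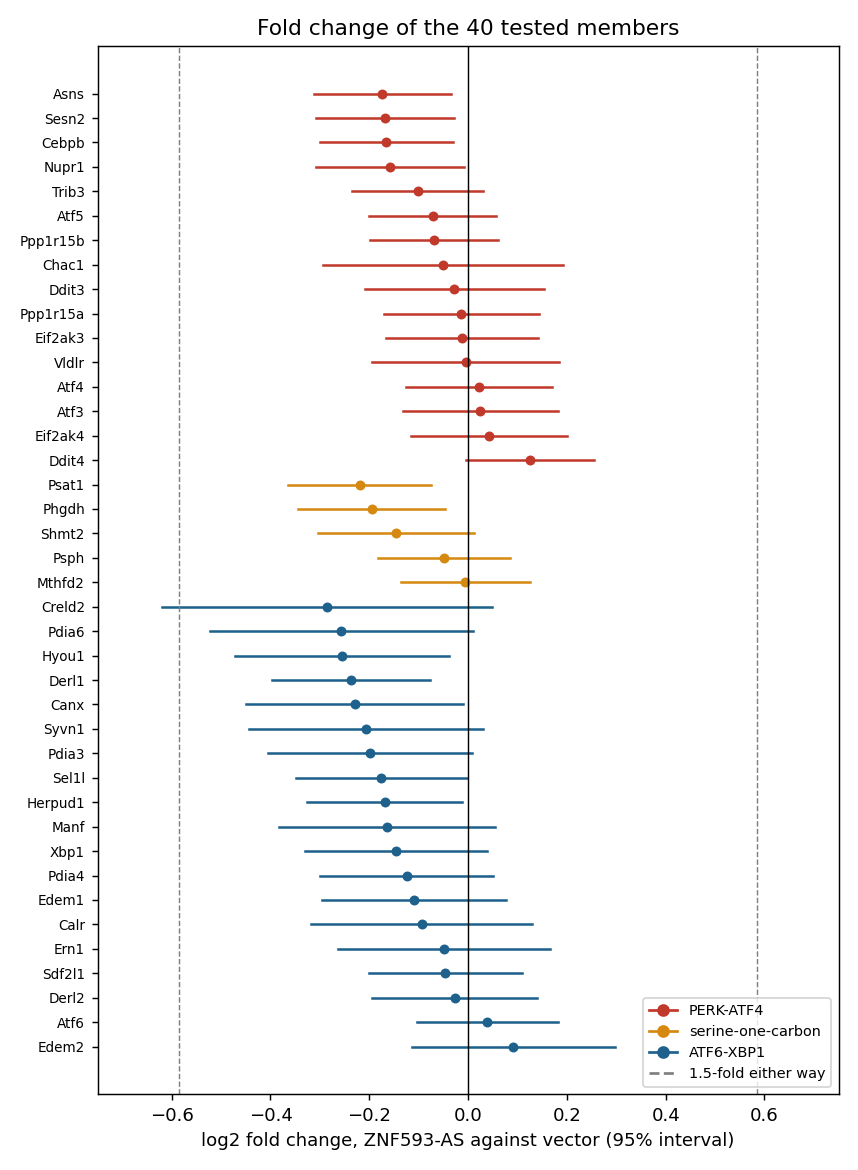
Log2 fold change of ZNF593-AS against vector (x) for the 40 tested members (y), as points with 95% intervals from edgeR, coloured by branch and sorted within it, with 1.5-fold in either direction marked by dashed lines. 29 intervals include no change, 11 lie below it, and only that of Creld2 crosses a dashed line.

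ATF4 acts on its targets through C/EBP-ATF response elements, and what the members share in sequence was looked up in RefSeq promoter windows (GRCm38.p6, 250 bases before to 50 after a gene's start), which were given for 36 members. The core TGATGNAA, searched on both strands, was in a window of 6 of 15 PERK-ATF4 genes (40%), of 0 of 5 serine and one-carbon genes and of 1 of 16 ATF6-XBP1 genes, against 4.51% of the 27025 genes with a window. A match describes letters in this window and not binding. The stretches of 4 of the genes with a match follow, with the match in capitals, to set the element beside the values of its genes. In Asns the motif reads forward, and in the others on the opposite strand.
Asns (chr6:7693210-7693269, minus strand): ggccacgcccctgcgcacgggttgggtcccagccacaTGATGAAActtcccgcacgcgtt
Nupr1 (chr7:126625541-126625600, minus strand): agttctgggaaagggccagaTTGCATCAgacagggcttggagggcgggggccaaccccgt
Atf3 (chr1:191183404-191183463, minus strand): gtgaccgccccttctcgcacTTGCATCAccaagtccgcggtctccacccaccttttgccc
Chac1 (chr2:119351029-119351088, plus strand): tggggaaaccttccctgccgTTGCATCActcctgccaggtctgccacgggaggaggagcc
Asns and Nupr1 had log2 fold changes of -0.17 and -0.16, while Atf3 stood at 0.02 and Chac1 at -0.05. The other members of the branch with a match were Trib3 (-0.10) and Vldlr (-0.0048). PERK-ATF4 genes with a window but no match ran from -0.17 (Sesn2) to 0.13 (Ddit4), and no window was given for Ppp1r15b (-0.07). Whether the core bears on the fold changes was not tested.

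Serine and one-carbon synthesis supplies glycine, folate-bound carbon and redox cofactors, and its enzymes are targets of ATF4. All 5 genes had fold changes below 0 with TMM, though Psph (0.043) and Mthfd2 (0.086) were above 0 with library totals, none passed, and the median log2 fold change was -0.15. Psat1 (chr19:15904678-15947337, GRCm38), the aminotransferase of the pathway, had the smallest adjusted p of all members. It was at 125, 142 and 125 CPM in vector replicates 1, 2 and 3 and at 118, 112 and 106 CPM in ZNF593-AS replicates 1, 2 and 3. The groups did not overlap, and the log2 fold change was -0.22 ± 0.07 with a 95% interval from -0.36 to -0.07 (edgeR adjusted p = 0.0601).

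Phgdh, which commits carbon from glycolysis to serine, was at 621, 672 and 607 CPM with vector and at 579, 550 and 530 CPM with ZNF593-AS (log2 fold change -0.20 ± 0.07, edgeR adjusted p = 0.108). Here too every treated library lay below every vector library. Of its 50-base stretches 47.8% also occur in other genes, Gm7901 above all. Gm7901 had 0.0268 to 0.0301 times the CPM of Phgdh. How reads from shared stretches were counted was not given, and their part in the value of Phgdh was not tested.

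The mitochondrial serine hydroxymethyltransferase gene Shmt2 was at 540 ± 44.4 and 488 ± 23.7 CPM (-0.15 ± 0.07), with groups that overlapped. Psph, the phosphatase of the last step to serine, was at 265 ± 7.72 and 256 ± 8.96 CPM (-0.05 ± 0.06), with 10.4% of its exon bases shared with the opposite-strand gene Cct6a, and the mitochondrial folate enzyme gene Mthfd2 at 307 ± 7.45 and 306 ± 6.57 CPM (-0.0054 ± 0.062). ZNF593-AS replicate 3 was the lowest of the 6 libraries in all 5 genes, against 16.9% of all tested genes. The branch median was -0.09 without vector replicate 2 and -0.20 without vector replicate 1.

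**Figure D3:**
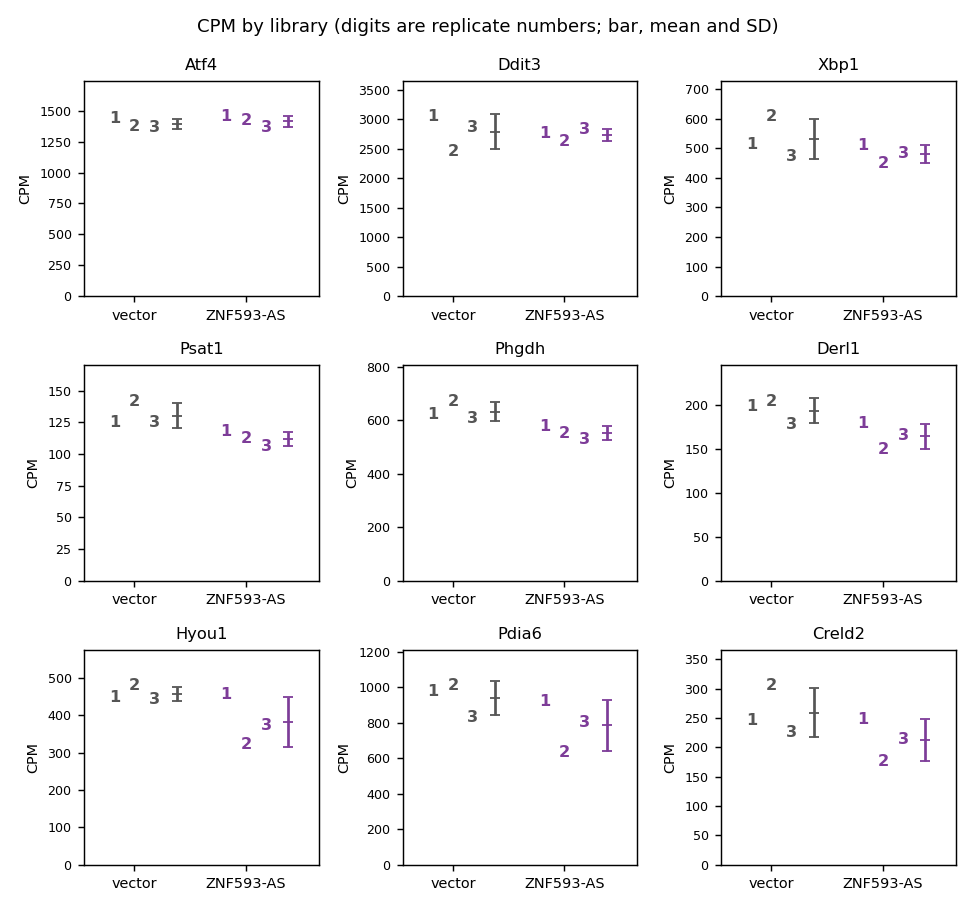
CPM (y, from 0) of 9 members in each library, with digits for the replicate numbers of vector (grey) and ZNF593-AS (purple) and bars for the mean and SD of 3 libraries. Atf4 and Ddit3 overlap between groups, Psat1 and Phgdh do not, and in Hyou1, Pdia6 and Creld2 replicate 2 of ZNF593-AS is lowest while replicate 1 stays among the vector libraries.

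The median log2 fold change of the ATF6-XBP1 branch was -0.16, which was -0.074 with library totals and -0.10 with upper-quartile factors and stood at -0.17 from the median of all genes in each of the 3. The branch differed more between the treated libraries than between the groups. The median of its 19 tested genes, relative to the mean of the vector libraries on the log2 scale, was 0.0010 in ZNF593-AS replicate 1, -0.34 in replicate 2 and -0.18 in replicate 3, while the vector libraries were at -0.03, 0.06 and -0.04. Replicate 2 was the lowest of all 6 libraries in 16 of the 19 genes (84.2%), against 14.4% of all tested genes, and replicate 1 was the highest treated library in 16 of them, against 32.2% of all tested genes. The median coefficient of variation was 13.0% among treated and 7.64% among vector libraries for these genes, whereas it was 7.48% and 8.41% over all tested genes. In none of the 19 genes did the groups separate, against 13.4% of all tested genes with every treated library below and 12.4% with every one above.

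The sensor genes Atf6 and Ern1 had fold changes near 0, while that of Xbp1 was close to the branch median. Atf6 was at 108, 107 and 115 CPM in vector replicates 1, 2 and 3 and at 122, 104 and 112 CPM in ZNF593-AS replicates 1, 2 and 3 (log2 fold change 0.04 ± 0.07). Ern1, which encodes IRE1, was at 49.5, 58.3 and 63.2 CPM with vector and at 63.2, 49.3 and 52.9 CPM with ZNF593-AS (-0.05 ± 0.10). Xbp1 was at 512, 605 and 473 CPM with vector and at 508, 447 and 482 CPM with ZNF593-AS (-0.15 ± 0.09, edgeR adjusted p = 0.379). All 3 had overlapping groups.

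Among the chaperones and foldases, Hyou1, a large Hsp70-like chaperone of the ER, was at 448, 479 and 443 CPM with vector and at 455, 322 and 371 CPM with ZNF593-AS. Replicates 2 and 3 lay below the vector libraries and replicate 1 among them, for a log2 fold change of -0.26 ± 0.10 (edgeR adjusted p = 0.159). Canx, the lectin chaperone calnexin, was at 1775, 1522 and 1658 CPM with vector and at 1560, 1156 and 1509 CPM with ZNF593-AS (-0.23 ± 0.10, edgeR adjusted p = 0.219). The disulfide isomerase genes Pdia6, Pdia3 and Pdia4 had log2 fold changes of -0.26 ± 0.12, -0.20 ± 0.10 and -0.12 ± 0.08. In each of them ZNF593-AS replicate 2 was the lowest library, at 631, 546 and 510 CPM, while replicate 1 was at 920, 723 and 649 CPM.

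Creld2, a secreted ER stress protein, was the member with the largest difference and the widest interval, at 259 ± 41.3 CPM with vector and 213 ± 36.1 CPM with ZNF593-AS (log2 fold change -0.29 ± 0.14, edgeR adjusted p = 0.325). Manf, a secreted survival factor of the ER, was at 718 ± 79.2 and 641 ± 93.2 CPM (-0.16 ± 0.10), Calr at 4330 ± 450 and 4057 ± 568 CPM (-0.09 ± 0.10), and Sdf2l1, an ER chaperone partner, at 49.1 ± 1.96 and 47.5 ± 4.58 CPM (-0.05 ± 0.07).

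ER-associated degradation, which pulls misfolded proteins back to the cytosol, held the member with the second smallest adjusted p. Derl1 (chr15:57869502-57892418, GRCm38), a derlin of the retrotranslocation channel, was at 198, 204 and 177 CPM with vector and at 178, 149 and 164 CPM with ZNF593-AS. Replicate 1 of the treated group just overlapped replicate 3 of the vector group, and the log2 fold change was -0.24 ± 0.08 with an interval from -0.40 to -0.08 (edgeR adjusted p = 0.0663). Sel1l, the adaptor of the ligase complex, was at 176, 183 and 198 CPM with vector and at 184, 145 and 164 CPM with ZNF593-AS (-0.18 ± 0.08, edgeR adjusted p = 0.237). Its partner ligase gene Syvn1, also called HRD1, stood at 12.2 ± 1.56 and 10.5 ± 1.44 CPM (-0.21 ± 0.11).

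Herpud1, a scaffold of the same complex, was at 106, 117 and 101 CPM with vector and at 105, 93.5 and 88.4 CPM with ZNF593-AS (log2 fold change -0.17 ± 0.07, edgeR adjusted p = 0.207), again with replicate 1 inside the vector range. The mannosidase-like genes Edem1 and Edem2 had log2 fold changes of -0.11 ± 0.09 and 0.09 ± 0.10, and Derl2 of -0.03 ± 0.08.

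**Figure D4:**
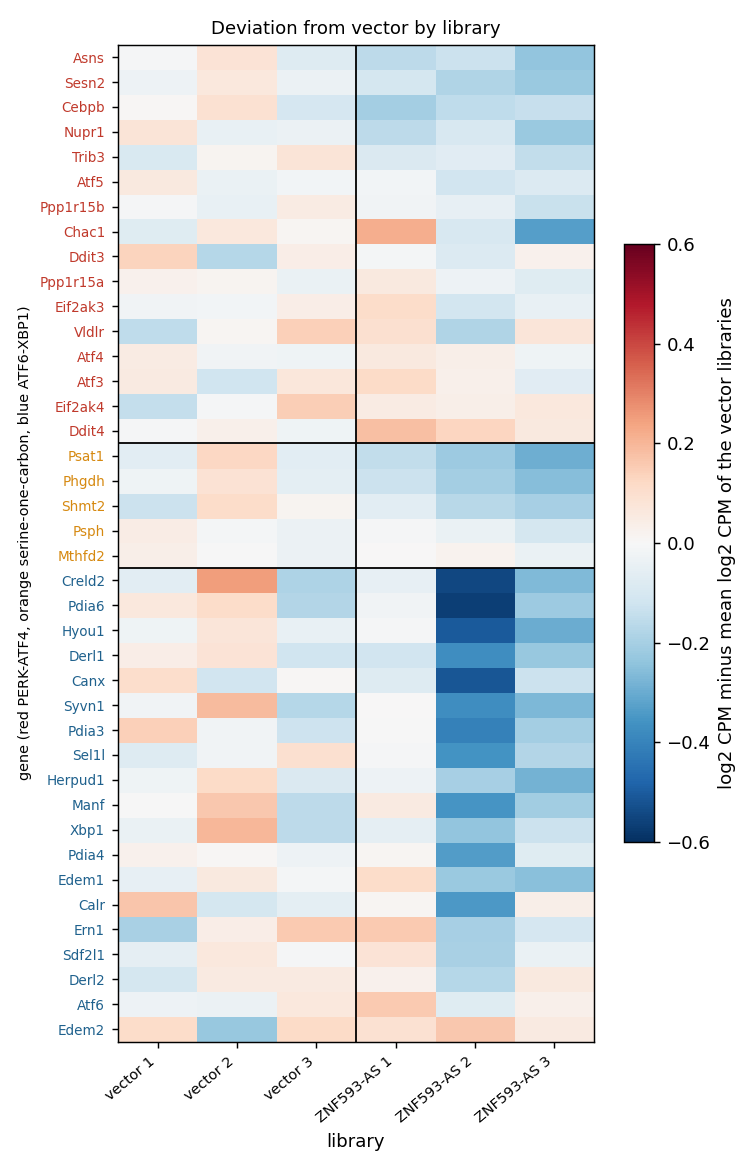
Log2 CPM of each tested member (rows, grouped by branch) in each library (columns) minus the mean of the 3 vector libraries, in colour from blue (lower) to red (higher). The ATF6-XBP1 rows are darkest in ZNF593-AS replicate 2, at a median of -0.34, and pale in replicate 1, at a median of 0.0010.

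Replicate 1 of ZNF593-AS was also the most deeply sequenced library, with 84547615 counts, and replicate 2 had 73667864. Without replicate 1 the branch median was -0.24, and 3 genes passed as lower, Derl1 (log2 fold change -0.30), Pdia6 (-0.39) and Hyou1 (-0.40). Of all 16537 genes tested in that fit, 962 passed as lower. Without replicate 2 the branch median was -0.09 and no member passed, while 965 of 16564 genes did. Over all branches, 17 members were lower at an unadjusted p under 0.05 without replicate 1, 5 without replicate 2, 4 without replicate 3 and 4 without vector replicate 2, where 11 were with all libraries. The share of all tested genes that were lower in this way was 11.03%, 8.995%, 9.66% and 10.3% in the same 4 fits. The summed level of 8 fibroblast markers, most of it from the collagen genes Col1a1, Col1a2 and Col3a1, was 507 to 524 CPM in vector and 387 to 464 CPM in ZNF593-AS libraries. The 3 collagen genes fell (log2 fold changes -0.45, -0.25 and -0.36, edgeR adjusted p = 0.000234, 0.0307 and 0.00725), whereas Pdgfra of the same list rose (0.39, edgeR adjusted p = 0.0370), and Dcn, Thy1 and Postn did not pass, at 0.26, 0.30 and -0.14. The sum of 4 smooth muscle markers was 164 to 189 CPM in vector and 195 to 281 CPM in ZNF593-AS libraries, and none passed, with log2 fold changes of 0.45 for Acta2, 0.40 for Tagln, 0.0023 for Cnn1 and -0.16 for Myh11. The sums for 4 endothelial markers were 0.443 to 0.670 and 0.485 to 0.687 CPM, and those for 5 macrophage markers 6.89 to 8.19 and 8.79 to 10.01 CPM. Of the macrophage markers Cd68 rose (0.46, edgeR adjusted p = 0.0316), Csf1r (-0.03) and Ptprc (0.22) did not pass, and Adgre1 and Itgam had too few counts to test. The part of depth, of these cell type genes or of the differing treatment fields in the spread of the branch was not tested.

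Genes of this branch are known for the ER stress response element (ERSE), made of CCAAT and CCACG with 9 bases between them, through which ATF6 and XBP1 act. Searched on both strands, it was in a promoter window of 6 of 16 ATF6-XBP1 genes (37.5%), of 0 of 15 PERK-ATF4 genes and of 0.137% of all 27025 genes with a window. The stretches below show where it lies in the 5 of these genes that were abundant enough to test, with the match in capitals. In Calr and Creld2 it reads on the opposite strand.
Calr (chr8:84847054-84847113, minus strand): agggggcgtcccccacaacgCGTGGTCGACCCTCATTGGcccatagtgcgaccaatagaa
Canx (chr11:50325779-50325838, minus strand): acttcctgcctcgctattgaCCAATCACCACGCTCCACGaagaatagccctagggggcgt
Pdia6 (chr12:17266471-17266530, plus strand): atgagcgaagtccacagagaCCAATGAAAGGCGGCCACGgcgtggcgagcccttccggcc
Creld2 (chr15:88819500-88819559, plus strand): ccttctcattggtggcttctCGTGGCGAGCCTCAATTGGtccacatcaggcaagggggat
Syvn1 (chr19:6046512-6046571, plus strand): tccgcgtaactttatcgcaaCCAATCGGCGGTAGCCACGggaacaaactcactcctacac
These 5 genes had log2 fold changes from -0.29 (Creld2) to -0.09 (Calr). The sixth match was in Derl3. Branch genes with a window but no ERSE ran from -0.20 (Pdia3) to 0.09 (Edem2). No window was given for Atf6 (0.04), Derl1 (-0.24), Manf (-0.16) and Hyou1 (-0.26). Any link between the element and the fold changes was not tested. The related ERSE-II, ATTGG and CCACG with 1 base between them, was in 1 member, Herpud1, and in 0.0444% of all genes with a window, while the UPRE core TGACGTGG was in 0 members and 0.714% of those genes.

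Further genes of the same pathways were taken in 5 lists, whose medians ran from -0.13 to -0.0024, and the largest difference among them was in Eif2ak2 (chr17:78852564-78882573). It encodes PKR, an eIF2 kinase that is activated by double-stranded RNA and is itself induced by interferon. It was at 671, 624 and 634 CPM in vector replicates 1, 2 and 3 and at 96.5, 125 and 153 CPM in ZNF593-AS replicates 1, 2 and 3, with a wide gap between the groups. The log2 fold change was -2.37 ± 0.15 (edgeR adjusted p = 3.6e-06), beside Eif2ak3 at -0.01, Eif2ak4 at 0.04 and Eif2ak1, the gene of the heme-regulated kinase, at -0.03 ± 0.06. Of the 14 genes in the list of other eIF2 kinases and the eIF2 apparatus, Eif2ak2 alone passed, and the median was -0.03.

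Of 21 other ATF4 targets none passed in edgeR, while DESeq2 called 1 higher and limma-voom none. Unadjusted p-values under 0.05 in edgeR were found for 3 that were lower (14.3%) and 2 that were higher, near the 11.2% and 9.18% of all tested genes. The smallest p belonged to Fgf21, a stress hormone gene, at 14.2, 13.2 and 10.7 CPM with vector and 20.6, 14.8 and 15.02 CPM with ZNF593-AS (log2 fold change 0.41 ± 0.14, edgeR adjusted p = 0.0952). In the list of 23 other ER chaperones and foldases, 7 genes (30.4%) fell with an edgeR p below 0.05 before adjustment. This share was 11.2% over all tested genes. None of the 7 passed after adjustment. Only 1 gene of the list, Cnpy2, rose by the same measure. Cnpy2 alone passed the test, rising from 22.7 ± 1.13 CPM with vector to 27.5 ± 2.08 CPM with ZNF593-AS (log2 fold change 0.28 ± 0.07, edgeR adjusted p = 0.0282). Leaving out vector replicate 2 ended the call, as did leaving out vector replicate 3, ZNF593-AS replicate 1 or ZNF593-AS replicate 3, with log2 fold changes from 0.23 to 0.27.

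The chaperone list as a whole had a median of -0.13 and repeated the pattern by library, at 0.01 in ZNF593-AS replicate 1, -0.28 in replicate 2 and -0.10 in replicate 3. Replicate 2 was lowest of the 6 libraries in 19 of its 23 genes (82.6%, against 14.4% of all tested genes). Hspa5, which encodes the main ER Hsp70 chaperone BiP and is given here because the sensors bind it, was at 7277, 7167 and 6366 CPM with vector and at 6949, 5031 and 5738 CPM with ZNF593-AS (-0.23 ± 0.11, edgeR adjusted p = 0.233).

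Of 21 tested genes of degradation and sensor processing none passed in edgeR, DESeq2 or limma-voom, with 2 lower (9.52%, against 11.2% of all tested genes) and 0 higher at an unadjusted p under 0.05. The median of this list was -0.06, and 18 genes (85.7%) had a fold change below 0, against 47.9% of all tested genes. In 5 genes (23.8%) every treated library lay below every vector library, against 13.4% of all tested genes, and in 0 every one lay above, against 12.4%. The smallest p was that of Creb3, an ER-bound transcription factor gene, at 48.9 ± 0.796 and 43.7 ± 0.639 CPM (log2 fold change -0.16 ± 0.06, edgeR adjusted p = 0.125). Of 22 tested genes of serine and one-carbon metabolism outside the members, Tyms, thymidylate synthase, fell from 44.1 ± 2.47 to 35.4 ± 0.866 CPM (-0.32 ± 0.06, edgeR adjusted p = 0.00389). Mat2a, which makes the methyl donor S-adenosylmethionine, rose from 36.0 ± 3.41 to 43.2 ± 1.87 CPM (0.26 ± 0.07, edgeR adjusted p = 0.0339). Mat2a did not pass when vector replicate 1, vector replicate 2, ZNF593-AS replicate 1 or ZNF593-AS replicate 2 was left out, with log2 fold changes from 0.22 to 0.25.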

How the data were processed

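The authors deposited 1 table of whole-number read counts per gene for 6 libraries, with exon coordinates and length per gene, per the file headers. The submitters' processing notes name GRCm38, CASAVA, cutadapt 1.2.1, Bowtie2 and TopHat2 but give them no role. The counter, its strand setting and its annotation were not given in the sources used here. Low counts were mostly even (2160 to 2359 genes at 2 and 365 to 492 at 1 in each library), as when each mate is counted.

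Genes passing filterByExpr (minimum count 10, total 15) were scaled by TMM and tested with edgeR 4.0.16 in R 4.3.3 (robust quasi-likelihood F test, 2-sided, Benjamini-Hochberg over 16473 genes, threshold 0.05). SE is the log2 fold change over the root of F, and intervals are 95% per gene. Values by library used log2 CPM with an offset of 0.1. DESeq2 1.42.0 and limma 3.58.1 were alternatives. The steps were also run on simulated data, but the outcome is not given here, so it shows nothing about how small a fold change would pass. Libraries of a group differed beyond sampling noise (chi-square of 10.7 or more per gene on halved counts). Promoter windows came from RefSeq by symbol. Members and lists were chosen with earlier results of these data known. All members are named, with values per library for regulators and for members at an unadjusted p under 0.05. From each further list up to 4 called genes, or the one with the smallest p, are named, while Hspa5, Eif2ak1 and the marker genes stand outside this rule.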

Additional observations from a re-analysis of the deposited data

How the results depend on the processing

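Over 17 alternatives for 40 members, 16 of 680 pairs of member and alternative gave a call, in 8 members, and no call was reversed. The members called lower numbered 0 as reported, 2 with TMM factors from uncalled genes, 6 with no filter and 3 in DESeq2, and 0 to 3 when 1 library was left out. Over all genes those lower were 1015, 1112, 1111 (of 27135) and 1092 in the same settings, and 827 to 962 when 1 library was left out. The 3 members came without ZNF593-AS replicate 1, where 962 of 16537 genes were lower. Without vector replicate 3 it was Derl1 alone, beside 909 of 16584 genes. The members called higher numbered 0, and 1 (Ddit4) under library totals, beside 1284 of 16473 genes. Under library totals the median was -0.016 for all members, 0.052 for PERK-ATF4, -0.056 for serine and one-carbon and -0.074 for ATF6-XBP1 genes, and upper-quartile factors gave 0.023 for PERK-ATF4 and -0.10 for ATF6-XBP1 genes. Relative to the median of all genes the members stood at -0.12 both as reported and under library totals. Members with a fold change below 0 numbered 34 as reported (85%, against 47.9% of all tested genes). They numbered 22 under library totals and 24 under upper-quartile factors, where the median of all genes was 0.10 and 0.07 rather than 0.01. Leaving out 1 library moved the median to between -0.16 and -0.07 for all members, -0.085 and -0.017 for PERK-ATF4, -0.20 and -0.09 for serine and one-carbon, and -0.24 and -0.09 for ATF6-XBP1 genes. Of the further pathway genes (14, 21, 23, 21 and 22 tested in the 5 lists), 2 were called higher and 2 lower as reported. Of all tested genes 2.23% and 6.16% were. Those called higher were 6 under library totals, 4 with no filter and 0 to 1 when 1 library was left out. Over all genes these were 1284 of 16473, 561 of 27135 and 138 to 394. Those called lower were 7 with no filter and 2 to 8 when 1 library was left out, 8 of them without ZNF593-AS replicate 1. Over all genes 1111 of 27135 were lower with no filter and 962 of 16537 without that replicate. Over all genes 2095 were called under library totals and 1383 as reported. The causes were not tested. No label states that the replicate numbers pair the libraries. Deviations of same-numbered libraries correlated at -0.09, -0.03 and 0.05, and not every library correlated best with its own number. These correlations cannot show whether the cultures were matched. With the replicate block, 4 of the further pathway genes were called higher and 4 lower, and 0 members. Over all 16473 tested genes 334 were then higher and 997 lower. Derl3 alone among the members had too few counts to test.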

Other observations

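Manf shares 166 exon bases on the opposite strand with 4930524O07Rik, which had between 0.531 and 0.546 times the CPM of Manf in every library. Derl2 shares 231 exon bases with Mis12, also on the opposite strand. The strand setting of the counting was not given, and the share of reads that each gene of such a pair took from the other was not tested. All 41 members together took 1.98% to 2.27% of the counts of a library, lowest in ZNF593-AS replicate 2 and highest in ZNF593-AS replicate 1. Gdf15, a secreted stress cytokine and ATF4 target, was at 38.4 ± 2.0 and 37.4 ± 6.04 CPM (SD, n = 3; log2 fold change -0.04 ± 0.09), with ZNF593-AS replicate 1 highest at 44.3 CPM and replicates 2 and 3 at 34.0 and 33.7 CPM, the order also seen in Chac1. Gdf15 and the overlapping genes were chosen after their values were seen.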
